A study of Mus musculus with 21 samples.

Results

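The collagen gene family was followed through skin RNA-seq of a mouse model of chronic graft-versus-host disease. Its members were the gene symbols made of Col, a chain type number, a and a chain number, with a mean count of 10 or more in either of the counting runs of the deposited table. Of 64050 symbols in that table, 44 had such a name and 40 passed, and all 40 also passed the filter on low counts used for testing. Col26a1 was just inside the limit, at a mean count of 11.1, and Col19a1 just outside it, at 9.44. Col9a1, Col10a1 and Col25a1 were also left out. The members comprised 11 fibrillar chains, 9 chains of basement membranes and the layer beneath them, 7 FACIT chains, 6 beaded filament chains, 3 transmembrane chains and 4 others. FACIT stands for fibril-associated collagens with interrupted triple helices.

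Recipients were BALB/c mice of 8 weeks, irradiated with 700 cGy and given bone marrow 6 hours later. The syngeneic group (Syn, 4 libraries) received BALB/c marrow and an isotype antibody of the mIgG2a LALA-PG format. All other groups received B10.D2 marrow, an allogeneic transplant matched at H-2d. They were given the same isotype antibody (Allo, 4 libraries), the antibody mCAN10 against mouse IL1RAP, the accessory receptor chain shared by several interleukin-1 family cytokines (mCAN10, 4 libraries), water (Allo_H, 4 libraries) or nintedanib, a small tyrosine kinase inhibitor (Nin, 5 libraries). Dosing ran from day 21, once disease was visible, and week 7 was the end point at which the skin was sampled. The antibodies went into the peritoneum, with a loading dose of 20 mg/kg and repeats of 10 mg/kg each week. Nintedanib was dosed at 50 mg/kg, by mouth each day according to the protocol, although the series description groups it with the injected agents. Donor strain and disease cannot be told apart between Allo and Syn, and no group had untransplanted or unirradiated skin. Syn, Allo and mCAN10 were counted in one run (12 libraries) and Allo_H and Nin in another (9 libraries), so groups were compared within a run. The labels do not say that each library was a separate mouse, so p-values measure the spread between these libraries.

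Collagens are triple helices of alpha chains, and the class of a chain sets where it is deposited. Types I and III form the load-bearing fibrils of the dermis, with type V inside them setting fibril width. FACIT chains such as types XII and XIV coat those fibrils, type IV networks form basement membranes, type VI beaded filaments link cells to the surrounding matrix, and type XVII spans the membrane of basal keratinocytes. Dermal fibroblasts make most fibrillar collagen, and its excess is the defining feature of skin fibrosis. Each library came from a piece of skin 3 mm across, so fewer cells of a type and less RNA per cell cannot be told apart.

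Totals ranged from 17130264 to 32899212 counts per library. Levels are given as CPM, counts scaled to a common library size by the trimmed mean of M-values, and values per library follow the order of replicates 1 to 4, or 1 to 5 for Nin. Basal keratinocyte markers (6 genes) made up 0.516 to 1.66% of counts in all 21 libraries, as skin should have. The amount of skeletal muscle differed widely: its 15 markers held 4.22 to 6.69% of counts in Syn, 0.00184% in Allo replicate 1 against 1.26 to 5.63% in the other Allo libraries, and 0.516 to 3.02% in mCAN10. Growing-hair markers (19 genes) held 6.60% and 2.63% in Nin replicates 1 and 3, and at most 0.00535% in the other Nin libraries. They also set Allo replicate 1 apart, at 0.0674% against 0.00218 to 0.00454% in the other Allo libraries. Allo_H replicate 3 stood at 0.0433%, against 0.00377 to 0.00854% in the other Allo_H libraries. Muscle markers held 0.782 to 5.92% in Allo_H and 0.547 to 3.50% in Nin. The 12 fibroblast markers, none at 0 in any group, held 0.634 to 0.798% in Syn, 0.107 to 0.269% in Allo, 0.422 to 0.885% in mCAN10, 0.182 to 0.270% in Allo_H and 0.175 to 0.536% in Nin. Cartilage markers stayed at or below 0.00103% everywhere, with Matn3 at 0 throughout Syn and Matn1 at 0 throughout Allo_H.

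**Figure D1:**
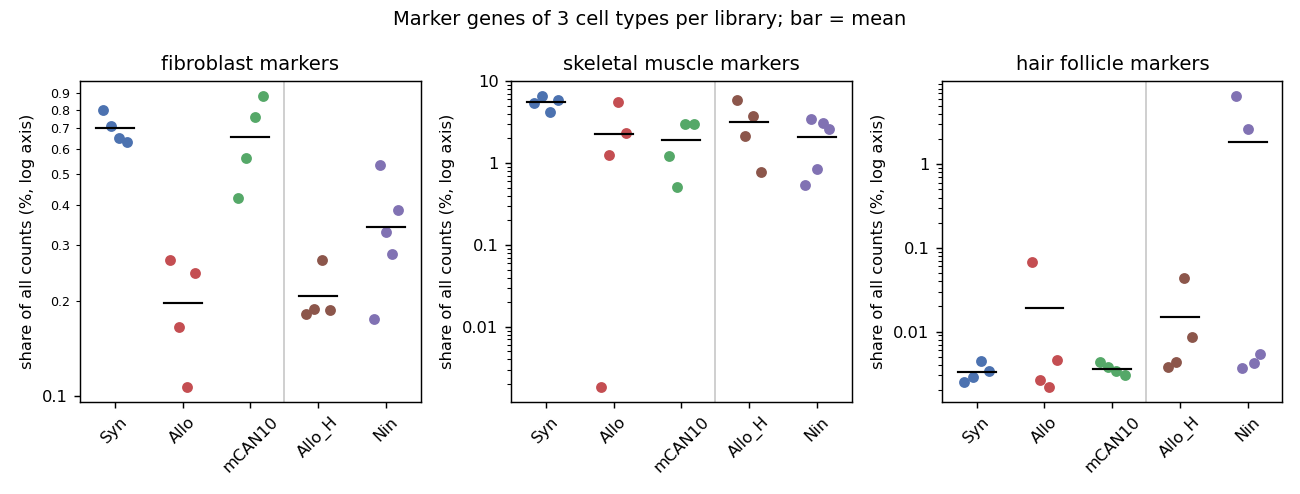
Share of all counts (percent, log axis) taken by markers of fibroblasts, skeletal muscle and growing hair follicles; each point is a library, each bar a group mean, and the vertical line divides the counting runs. Allo replicate 1 lies at 0.00184% for muscle, and Nin replicates 1 and 3 lie at 6.60% and 2.63% for hair.

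The collagen family as a whole held 0.749% ± 0.111 (SD, n = 4) of counts in Syn, 0.457% ± 0.259 (n = 4) in Allo, 0.926% ± 0.249 (n = 4) in mCAN10, 0.573% ± 0.179 (n = 4) in Allo_H and 0.890% ± 0.356 (n = 5) in Nin. Within Allo, replicate 1 stood at 0.820% and the other libraries at 0.220 to 0.444%, so that the Allo range overlapped that of Syn through a single library. Fibrillar chains made up most of this in Syn, from 0.333 to 0.499% of counts, and spanned 0.0665 to 0.469% in Allo and 0.374 to 0.854% in mCAN10. Transmembrane chains, nearly all of it Col17a1, moved much less, from 0.0655 to 0.0849% in Allo against 0.0769 to 0.111% in Syn.

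**Figure D2:**
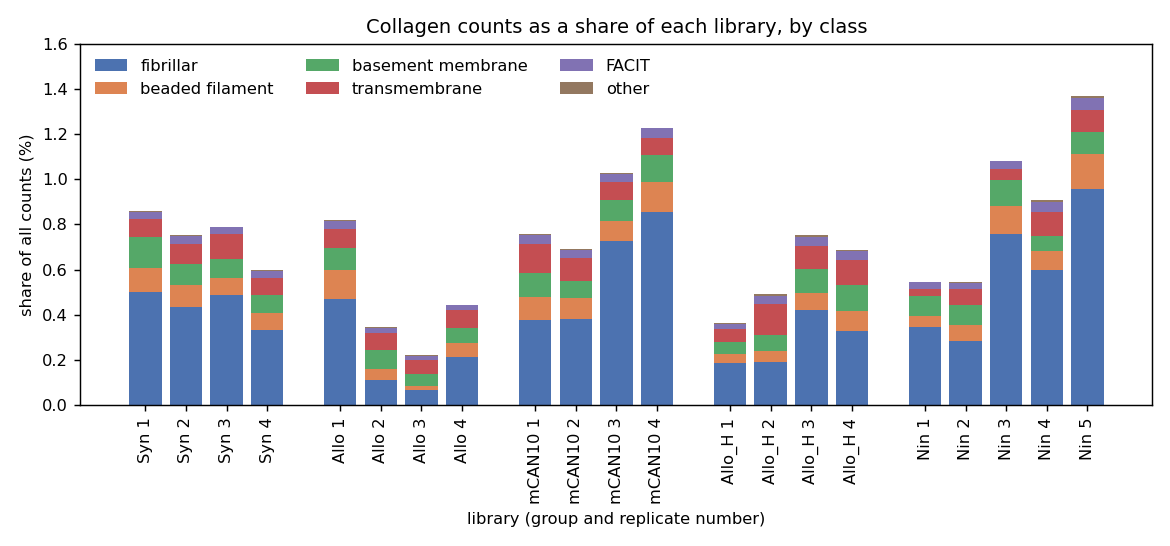
Collagen counts as a percentage of all counts in each of the 21 libraries, stacked by class. Allo replicate 1 reaches 0.820%, within the range of the Syn libraries, while the other Allo libraries lie between 0.220 and 0.444%.

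Per kilobase of the longest coding transcript, Col3a1 had the highest mean level in Syn, at 299 ± 43.0 CPM per kb (SD, n = 4), followed by Col1a2 at 235 ± 44.5 and Col1a1 at 187 ± 44.6. Col17a1 came next at 156 ± 26.5 CPM per kb. The neighbours in this order lie within their summed SDs of each other, but these SDs are spreads between libraries, and the genes share the libraries. Within each Syn library Col3a1 exceeded Col1a1, at 1.13 to 1.73 counts per Col1a1 count. In Allo the per-kb order of means changed: Col17a1 led at 145 ± 10.9, above Col3a1 at 140 ± 118, Col1a2 at 116 ± 83.5 and Col1a1 at 97.3 ± 79.5. The wide SDs of the fibrillar chains are again spreads between libraries that the genes share, so they do not settle the order of genes. Within each Allo library Col3a1 again exceeded Col1a1, at 1.08 to 1.87 counts per Col1a1 count. Col14a1 and Col12a1, the FACIT chains described below, had 16.8 ± 4.04 and 2.48 ± 0.481 CPM per kb in Syn and changed places in Allo, at 3.75 ± 3.09 and 7.94 ± 2.62.

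RefSeq promoter entries (mouse build GRCm38.p6) were matched by symbol for 31 of the 40 members. The 250 bases before the start are shown for 2 genes of the main dermal fibrils, Col1a2 and Col3a1, and for 3 that were called in both of the first comparisons below, Col15a1, Col20a1 and Col4a5. They lie on the plus strand at chr6:4505368-4505617, chr1:45311288-45311537, chr4:47207762-47208011, chr2:180986285-180986534 and chrX:141475169-141475418, in that order. Capitals mark CCAAT, searched on both strands.
Col1a2: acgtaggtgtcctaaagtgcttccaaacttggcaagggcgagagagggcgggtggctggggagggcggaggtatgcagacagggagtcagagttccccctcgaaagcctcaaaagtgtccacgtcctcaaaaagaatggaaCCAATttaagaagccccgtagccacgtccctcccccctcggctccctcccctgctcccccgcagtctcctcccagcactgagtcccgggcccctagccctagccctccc
Col3a1: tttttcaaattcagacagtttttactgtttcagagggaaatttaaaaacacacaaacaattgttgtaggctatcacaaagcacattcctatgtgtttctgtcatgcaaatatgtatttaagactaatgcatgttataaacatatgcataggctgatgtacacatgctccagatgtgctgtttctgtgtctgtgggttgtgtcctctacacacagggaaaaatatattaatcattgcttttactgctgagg
Col15a1: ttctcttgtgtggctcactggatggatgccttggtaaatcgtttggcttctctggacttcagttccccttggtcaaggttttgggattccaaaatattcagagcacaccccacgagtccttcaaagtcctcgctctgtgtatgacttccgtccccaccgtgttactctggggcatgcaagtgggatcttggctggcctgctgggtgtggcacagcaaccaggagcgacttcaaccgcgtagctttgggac
Col20a1: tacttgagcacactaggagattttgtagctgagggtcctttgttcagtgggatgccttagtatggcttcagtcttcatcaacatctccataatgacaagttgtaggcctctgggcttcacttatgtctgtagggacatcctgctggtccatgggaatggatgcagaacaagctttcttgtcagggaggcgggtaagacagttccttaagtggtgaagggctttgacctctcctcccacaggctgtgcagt
Col4a5: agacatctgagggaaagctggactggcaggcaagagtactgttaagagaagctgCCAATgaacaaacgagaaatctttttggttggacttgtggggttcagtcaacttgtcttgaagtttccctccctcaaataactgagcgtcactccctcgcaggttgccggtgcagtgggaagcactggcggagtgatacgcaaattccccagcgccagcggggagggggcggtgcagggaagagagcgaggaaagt
CCAAT lies 109 bases before the start in Col1a2 and 196 bases before it in Col4a5, and Col3a1 has a TATAAA 117 bases before its start. These letters were not found in the windows of Col15a1 and Col20a1. For the family, a member was counted if any of its promoter entries held the letters. The percentages are shares of single entries, so they are not a like-for-like background for the member counts. CCAAT was present in 11 of the 31 members and in 33.85% of 32851 promoter entries of this length, TATAAA in 4 of 31 and 12.37%, and the GC box GGGCGG in 20 of 31 and 32.74%. The pattern TGANTCA, bound by AP-1 factors, was found in 1 of 31 members, Col6a1, and in 6.75% of promoters. All patterns were read on both strands, and the matches are descriptions of letters only.

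Differences between groups were tested with edgeR's quasi-likelihood test in a fit of all 21 libraries. Fold changes are log2 with their standard error (SE), and a gene was called at a Benjamini-Hochberg adjusted p under 0.05 over the 20462 genes tested. In allogeneic against syngeneic isotype-treated skin (Allo against Syn), which shows the state of collagen RNA in diseased skin, 12 of the 40 collagens were called, where 22.6% of all genes tested were called. Of these, 10 were lower (8.8% of all genes) and 2 higher (13.8% of all genes). The lower genes were Col5a3 and Col24a1 among fibrillar chains, Col9a2, Col14a1 and Col20a1 among FACIT chains, Col4a3, Col4a4, Col4a5 and Col15a1 among basement membrane chains, and the beaded filament chain Col6a6. The higher genes were the FACIT chain Col12a1 and the unclassed Col28a1. The estimate was below 0 for 32 of 40 members, with a median of -0.61 against 0 over all genes. Groups did not overlap for 12 members (29.2% of all genes): 10 lay wholly lower in Allo (12.5% of all genes) and 2 wholly higher (16.8%). The share of members called in either direction, 30%, was thus close to that of all genes, and the share called lower was above it.

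The chains of the main dermal fibrils were not called. Col1a1, a chain of type I collagen, had 1138, 1001, 1461 and 838 CPM in Syn and 1213, 228, 210 and 656 in Allo, a log2 change of -0.94 ± 0.57 (edgeR adjusted p = 0.25). Col3a1, the type III chain, had 1971, 1644, 1651 and 1386 CPM in Syn and 1706, 426, 228 and 750 in Allo (-1.10 ± 0.49, edgeR adjusted p = 0.116). In both genes Allo replicate 1 lies inside the Syn range and the other Allo libraries below it. Col1a2, which pairs with Col1a1 in the type I helix, followed at -1.02 ± 0.49 (edgeR adjusted p = 0.142), with 1179, 279, 241 and 778 CPM in Allo against 920 to 1463 in Syn. Without Allo replicate 1, the library nearly free of muscle markers and highest of its group in hair markers, 16 members were called, 14 of them lower, with 18.8% of all genes called. Col3a1 then fell by 1.83 ± 0.46 (adjusted p = 0.00963) and Col1a2 by 1.54 ± 0.50 (adjusted p = 0.0382), while Col1a1 stood at -1.60 ± 0.57 (adjusted p = 0.0592). Leaving out Allo replicate 2 instead gave -0.92 ± 0.53 for Col3a1 (edgeR adjusted p = 0.256) and -0.80 ± 0.51 for Col1a2 (edgeR adjusted p = 0.308). Col1a1 was then at -0.70 ± 0.59 (edgeR adjusted p = 0.465). Over 18 alternative settings, Col1a1, Col1a2 and Col3a1 were called in 0, 1 and 2. With the log2 muscle marker share as a covariate, Col3a1 was called (-1.86, adjusted p = 0.0228) and Col1a1 and Col1a2 were not (adjusted p = 0.0817 and 0.0604). Allo replicate 1, at 0.00184% of counts against 0.516% or more in the other libraries, lies far out on this covariate. The covariate fit is therefore not independent of leaving that library out.

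Among the other fibrillar chains, Col5a3, a type V chain, fell from 173, 107, 119 and 155 CPM in Syn to 54.3, 69.1, 28.9 and 32.3 in Allo (-1.59 ± 0.43, edgeR adjusted p = 0.0121), with no overlap. Col24a1, a minor fibrillar chain, fell from 3.22 to 6.26 CPM in Syn to 0.884 to 2.84 in Allo (-1.34 ± 0.47, edgeR adjusted p = 0.047); this call was kept in 7 of 18 alternative settings. Of the 11 fibrillar chains, 10 had estimates below 0, with a class median of -0.68. The exception was Col11a1, at 0.41 ± 0.76.

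Within the FACIT class the chains that coat fibrils went in opposite directions. Col14a1, found on mature dermal fibrils, had 98.4, 129, 76.7 and 131 CPM in Syn and 53.9, 11.1, 15.8 and 16.0 in Allo. All Allo libraries lay below all Syn libraries, and replicate 1 again lay highest of its group. The change was -2.17 ± 0.44 (edgeR adjusted p = 0.00211), and the call held in 18 of 18 alternatives. Col12a1, known from tendon and from healing wounds, had 28.4, 36.3, 23.4 and 26.2 CPM in Syn and 134, 66.1, 74.7 and 90.9 in Allo. Here every Allo library lay above every Syn library, and the gene rose by 1.68 ± 0.40 (edgeR adjusted p = 0.00536, called in 18 of 18 alternatives). Col20a1, a little-studied FACIT chain, fell within narrow groups, from 21.3, 19.5, 20.9 and 21.7 CPM in Syn to 9.63, 8.53, 7.54 and 10.8 in Allo (-1.19 ± 0.17, edgeR adjusted p = 0.000152). The 6 Schwann cell markers moved with it, at 0.0588 to 0.155% of counts in Syn and 0.0274 to 0.0334% in Allo. Of these, 4 of 6 were called lower (8.8% of all genes), and their part in the result was not tested. Col9a2, known from cartilage, was close to the floor, at 0.269 to 3.67 CPM in Syn and 0 to 0.413 in Allo (-2.93 ± 0.99, edgeR adjusted p = 0.0385), and its call was kept in 8 of the 17 alternatives in which it was tested. Col16a1, the FACIT chain with the highest mean count, had 139 to 177 CPM in Syn and 91.8 to 150 in Allo and was not called (-0.30, edgeR adjusted p = 0.408).

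**Figure D3:**
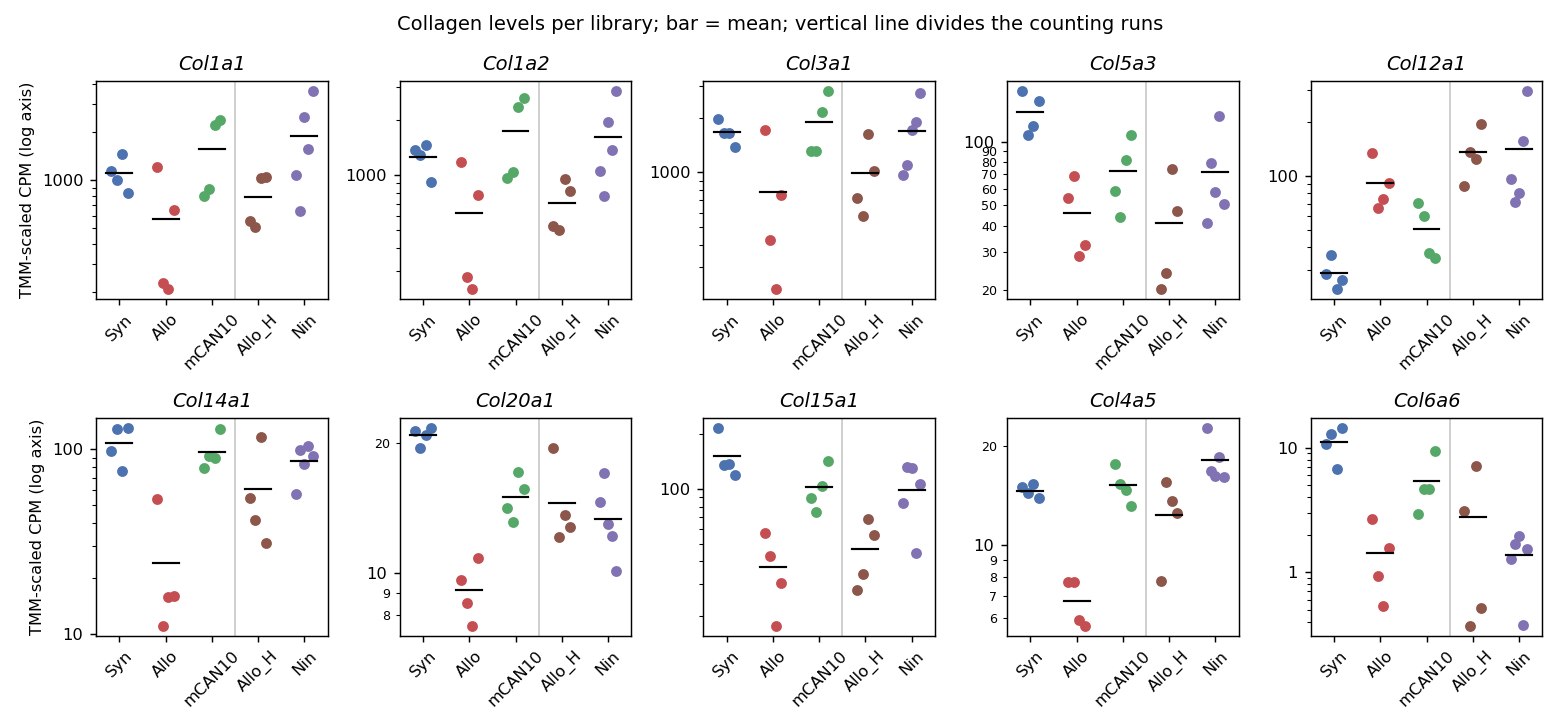
Levels of 10 collagens (CPM, log axis) in every library; bars are group means and the vertical line divides the counting runs. Col12a1 is the panel in which every Allo library lies above Syn, and Allo libraries lie wholly below Syn for Col14a1, Col20a1, Col15a1, Col4a5, Col5a3 and Col6a6.

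Of the 9 basement membrane chains, 4 were called lower (8.8% of all genes) and none higher (13.8%), with 7 estimates below 0 and 2 above. Col15a1, a multiplexin (a heparan or chondroitin sulfate-bearing collagen next to basement membranes), had 218, 136, 138 and 119 CPM in Syn and 57.4, 42.5, 17.7 and 30.4 in Allo (-2.05 ± 0.38, edgeR adjusted p = 0.00112). Col4a5, a type IV chain of specialised basement membranes that is also made in skin, had 15.0, 14.4, 15.3 and 13.9 CPM in Syn and 7.71, 7.75, 5.90 and 5.69 in Allo (-1.12 ± 0.18, edgeR adjusted p = 0.000387). Neither gene's groups overlap, and both calls held in 18 of 18 alternatives. Col4a3 and Col4a4, which can join Col4a5 in a shared helix, fell by 1.34 ± 0.45 (edgeR adjusted p = 0.0363) and by 1.58 ± 0.46 (edgeR adjusted p = 0.0198), from low levels of 1.57 to 2.89 and 5.23 to 8.50 CPM in Syn. These calls were kept in 11 and 16 of 18 alternatives, and that of Col4a3 was lost with the muscle covariate (adjusted p = 0.141) and without Allo replicate 1, 2 or 4. Of the Col4a3 exon bases, 5.65% overlap an antisense gene, C430014B12Rik, in the GENCODE M21 annotation, and reads of an unstranded kit cannot be assigned to either. Col4a1, which with Col4a2 builds the type IV network of nearly all basement membranes, spanned 242 to 515 CPM in Syn and 138 to 254 in Allo and was not called (-0.79 ± 0.33, edgeR adjusted p = 0.094). Col7a1, the anchoring fibril chain made largely by keratinocytes, went the other way without being called: 147, 157, 168 and 188 CPM in Syn and 224, 240, 198 and 309 in Allo, no overlap (0.56 ± 0.33, edgeR adjusted p = 0.24). Basal keratinocyte markers held 0.806 to 1.41% of counts in Syn and 1.03 to 1.57% in Allo, with Krt14 called higher and Krt15 lower, and their part in it was not tested.

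Type VI chains showed 1 call among 6, 16.7% of the class beside 22.6% of all genes. Col6a6, a later-described alpha chain of type VI, fell from 10.8, 12.8, 6.76 and 14.5 CPM in Syn to 2.66, 0.936, 0.532 and 1.56 in Allo (-2.97 ± 0.73, edgeR adjusted p = 0.00697). Col6a1, of the main type VI trimer, had 321 to 415 CPM in Syn and 102 to 521 in Allo, so its groups overlapped (-0.38 ± 0.40, edgeR adjusted p = 0.549). Col6a5, named after its values were seen, went the other way without a call, with an Allo mean 2.97 times the Syn mean. Its groups overlapped, at 0.217 to 1.05 CPM per kb in Syn and 0.240 to 2.28 in Allo. It was called higher with either replicate block and without Allo replicate 3. Col17a1, the hemidesmosomal chain of basal keratinocytes, lay at 745 to 1079 CPM in Syn and 762 to 900 in Allo (-0.10, not called). Col28a1, a collagen known from peripheral nerve, had 7.96, 4.50, 2.46 and 2.26 CPM in Syn and 9.31, 17.6, 16.1 and 6.38 in Allo. It was called higher (1.52 ± 0.47, edgeR adjusted p = 0.0245), although the groups overlap and the call was kept in 12 of 18 alternatives. The Schwann cell markers went the other way, with 4 of 6 called lower, and their part was not tested. Col8a1, the most counted of the unclassed chains, had 4.41 to 10.1 CPM in Syn and 6.94 to 18.4 in Allo (edgeR adjusted p = 0.417).

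Beside these changes, 7 of the 12 fibroblast markers and 2 of the 7 adipocyte markers were called lower in Allo than in Syn (8.8% of all genes) and none higher. Of the 7 macrophage markers, 4 were called higher (13.8% of all genes) and none lower. Of the 7 endothelial markers, 2 were called lower (8.8% of all genes) and none higher, and all 7 estimates were below 0. Their summed share was 0.0244 to 0.0374% of counts in Syn and 0.0132 to 0.0228% in Allo, without overlap, beside the lower Col15a1, Col4a3, Col4a4 and Col4a5. Col4a1 and Col4a2, the chains of nearly all basement membranes, were not called, with Allo means at 0.577 and 0.666 of the Syn means. Adipocyte markers held 0.362 to 1.24% in Syn and 0.122 to 0.384% in Allo, and macrophage markers 0.0379 to 0.0748% and 0.0872 to 0.226%. The part of these shifts in the collagen changes was not tested. Leaving out Allo replicate 2 reduced the count to 7 members, 17.5% of the family beside 17.1% of all genes, so that the count in either direction was then at background. By direction, 6 of the 40 members were lower and 1 higher, where 1506 of 20934 genes were called lower. The 7 were Col5a3, Col12a1, Col14a1, Col20a1, Col4a5, Col15a1 and Col6a6, a list given after its values were seen.

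With the IL1RAP antibody (mCAN10 against Allo), the question was whether treatment of established disease altered collagen RNA. Of the 40 members, 5 were called, all higher, where 10.8% of all genes were called, 5.58% higher and 5.19% lower. They were Col14a1, Col20a1, Col4a5, Col15a1 and Col8a2. The estimate was above 0 for 34 of 40 members, with a median of 0.67 against 0 over all genes. Levels in mCAN10 lay wholly above Allo for 10 members (12.2% of all genes) and wholly below for 1, Col7a1 (10.9%). The Allo libraries are shared with the first comparison, so opposite signs in the 2 comparisons are not independent of each other.

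All 11 fibrillar chains had estimates above 0, with a median of 0.72, and none was called. Col1a1 had 793, 877, 2205 and 2357 CPM in mCAN10, a change of 1.43 ± 0.57 against Allo (edgeR adjusted p = 0.121). Col1a2 had 961, 1041, 2327 and 2608 CPM (1.49 ± 0.49, edgeR adjusted p = 0.0613), and Col3a1 had 1319, 1309, 2153 and 2812 CPM (1.29 ± 0.49, edgeR adjusted p = 0.105). In all 3 genes mCAN10 replicates 3 and 4 lie high and replicates 1 and 2 lie inside the range of Syn or just below it, and the Allo range overlaps through Allo replicate 1. Without that library 10 members were called, all higher, with 10.4% of all genes called. Among them were Col1a1 (2.09 ± 0.59, edgeR adjusted p = 0.0283), Col1a2 (2.00 ± 0.51, edgeR adjusted p = 0.0171) and Col3a1 (2.02 ± 0.46, edgeR adjusted p = 0.0097). Without Allo replicate 2 instead, they stood at 1.15, 1.23 and 1.07 (edgeR adjusted p = 0.267, 0.162 and 0.242). Over 18 alternative settings, Col1a1, Col1a2 and Col3a1 were called in 2, 4 and 2. With muscle share as a covariate the same 3 genes were called, at 1.97, 1.88 and 1.85. Allo replicate 1 is the extreme library of that covariate, so the fit is not independent of leaving this library out.

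In the FACIT class, Col14a1 stood at 79.2, 92.2, 89.4 and 128 CPM in mCAN10, all above the 4 Allo libraries, and rose by 2.00 ± 0.44 (edgeR adjusted p = 0.00715; called in 18 of 18 alternatives). Col20a1 stood at 14.2, 13.1, 17.2 and 15.7 CPM and rose by 0.72 ± 0.17 (edgeR adjusted p = 0.0111; called in 17 of 18). Schwann cell markers moved with it here too, at 0.0907 to 0.132% of counts in mCAN10. Of these, 4 of 6 were called higher (5.58% of all genes), and their part was not tested here either. Col12a1, at 70.7, 59.9, 37.1 and 35.0 CPM, lay between the Syn and Allo means and was not called (-0.85 ± 0.39, edgeR adjusted p = 0.182). Its mCAN10 libraries overlap those of Allo. Col16a1 lay at 158 to 213 CPM, wholly above Allo, without a call (0.54 ± 0.24, edgeR adjusted p = 0.163).

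Among basement membrane chains, Col4a5 rose to 17.7, 15.3, 14.7 and 13.1 CPM (1.17 ± 0.18, edgeR adjusted p = 0.000802; called in 18 of 18). Col15a1 rose to 88.9, 74.6, 104 and 143 CPM (1.47 ± 0.38, edgeR adjusted p = 0.0165; called in 14 of 18). Both lie wholly above Allo. Col4a4 had 3.48 to 6.29 CPM (1.10 ± 0.46, edgeR adjusted p = 0.141), Col4a1 had 205 to 406 CPM, and neither was called. Col7a1, at 165, 135, 136 and 130 CPM, lay wholly below Allo (-0.78 ± 0.33, edgeR adjusted p = 0.145). Col8a2, a short-chain collagen known from Descemet's membrane of the cornea, had 10.5, 11.8, 20.3 and 9.88 CPM in Syn, 10.0, 0.884, 0.774 and 1.31 in Allo and 23.0, 15.5, 13.2 and 14.7 in mCAN10. It rose by 2.34 ± 0.73 (edgeR adjusted p = 0.0463), a call kept in 9 of 18 alternatives. Col6a6, at 2.93, 4.62, 4.68 and 9.48 CPM, lay above Allo in every library but was not called (1.92 ± 0.71, edgeR adjusted p = 0.0936).

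Of the 12 fibroblast markers, 7 were called higher in mCAN10 than in Allo (5.58% of all genes) and none lower (5.19%). None of the 7 macrophage markers was called. The 7 endothelial markers all had estimates above 0 with none called, and their share, 0.0272 to 0.0349% of counts in mCAN10, lay wholly above that in Allo. All 7 adipocyte markers were above 0 too, with a median of 1.34 and 1 called higher (Lep), at 0.370 to 0.813% of counts. The part of these shifts in the rises of Col14a1, Col15a1 and Col4a5 was not tested. Leaving out Allo replicate 3, Allo replicate 4, mCAN10 replicate 3 or mCAN10 replicate 4 left 3 members called each time, which is 7.5% of the family beside 8.31, 6.27, 6.47 and 6.15% of all genes. A fit of the 12 libraries of this run called 9 (18.8% of all genes), with Col12a1 and Col7a1 lower.

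**Figure D4:**
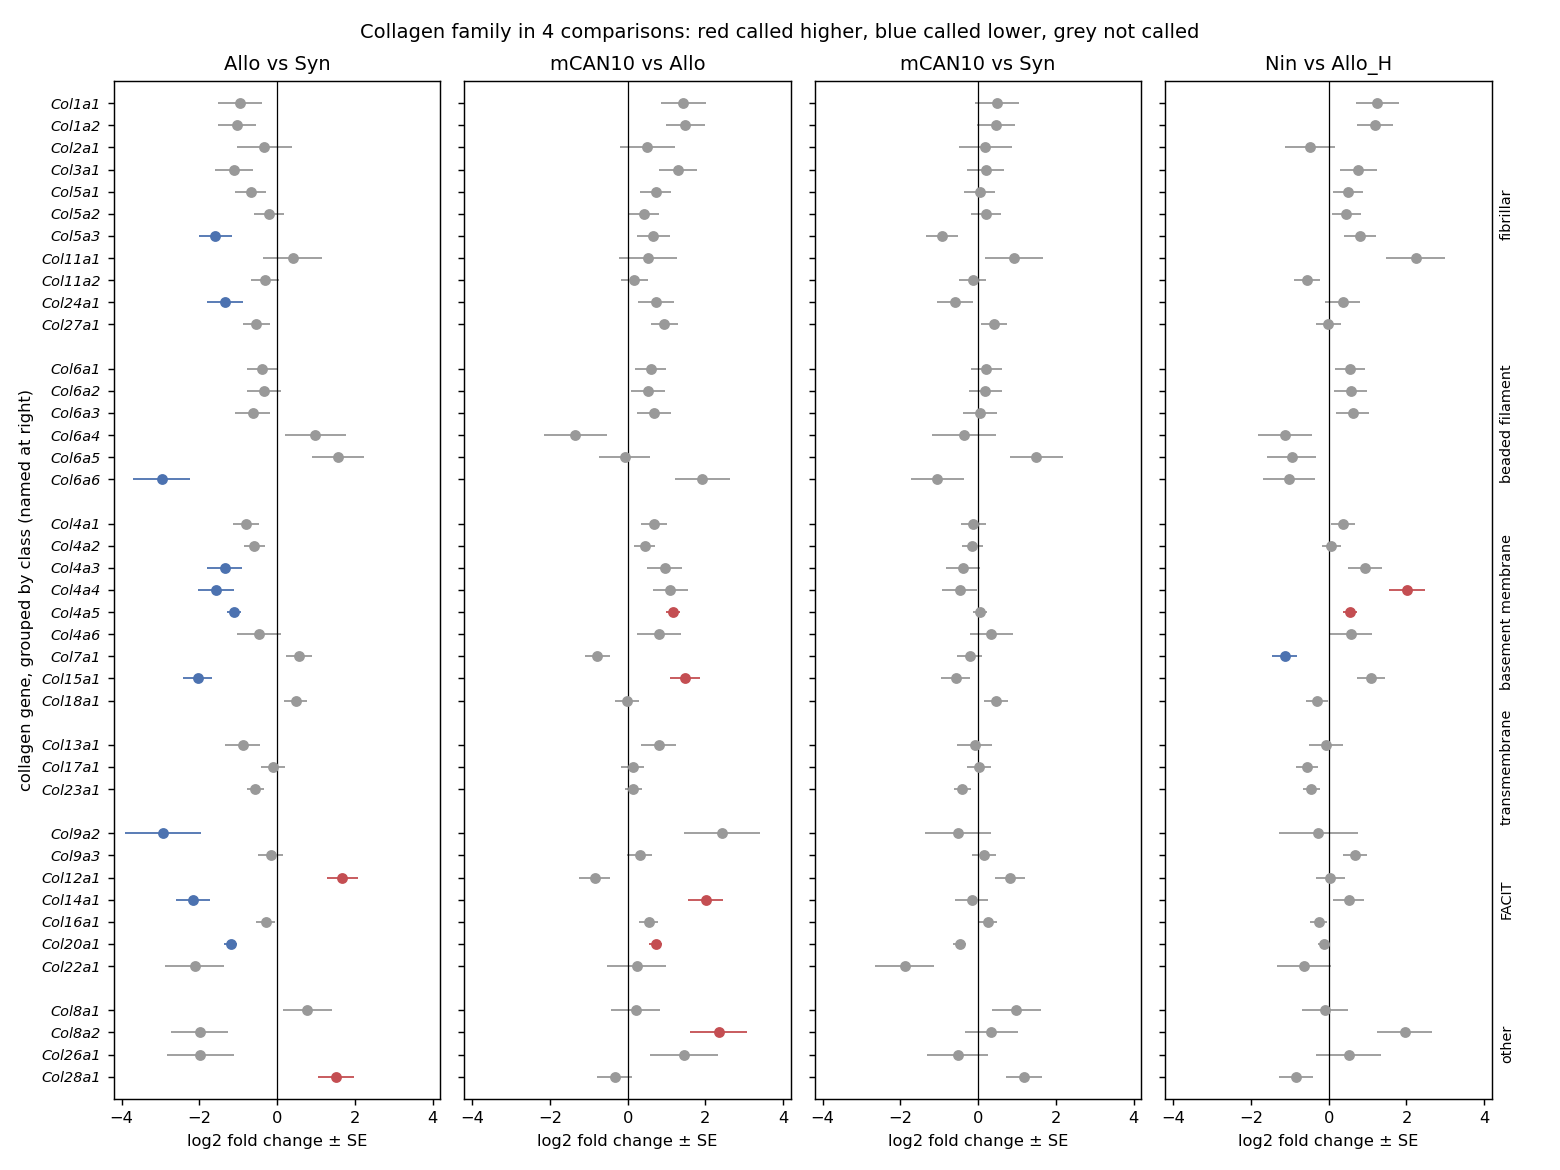
Log2 fold change ± SE of each of the 40 collagens in the 4 comparisons, ordered by class; red points were called higher, blue points lower and grey points were not called. Counts of called members are 12, 5, 0 and 3 from left to right. In Allo against Syn, Col12a1 and Col28a1 are the members called higher, and the uncalled Col6a5 lies near them.

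Between mCAN10 and Syn, which asks how far treated skin was from the syngeneic state, edgeR called 0 of 40 collagens (0.811% of all genes called, 0.777% higher and 0.0342% lower), and 6 had an unadjusted p under 0.05. DESeq2 also called 0, and a fit of only these 2 groups called 1, Col20a1 lower, with 11.2% of all genes called. The median estimate was 0.04 against 0.03 over all genes. Col14a1 differed by -0.16 ± 0.44 and Col4a5 by 0.05 ± 0.17, while Col12a1 stood at 0.83 ± 0.39 (edgeR adjusted p = 0.359), with 3 of 4 mCAN10 libraries above the highest Syn library. Col5a3 stood at -0.93 ± 0.42 (edgeR adjusted p = 0.34), and its mCAN10 libraries, at 58.6, 44.0, 81.8 and 107 CPM, lay under the lowest Syn library, the highest of them barely so. Levels of Col5a3, Col20a1 and Col22a1, named after their values were seen, lay wholly below Syn (8.05% of all genes), and those of no member wholly above (10.8%). Of the 15 skeletal muscle markers, 13 also lay wholly below Syn, with a median estimate of -1.67 and 0 called. The part of muscle content in the collagen levels was not tested here. A missing call does not show that treated and syngeneic skin were alike.

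In the second counting run, nintedanib was compared with water in allogeneic mice (Nin against Allo_H). Of 40 members, 3 were called, where 9.31% of all genes were called: Col4a4 and Col4a5 higher (5.56% of all genes) and Col7a1 lower (3.76%). The median estimate was 0.36, with 23 members above 0 and 17 below. Levels in Nin lay wholly above Allo_H for Col4a5 and Col8a2 (4.75% of all genes) and wholly below for Col7a1 (3.2%). These calls rest on the spread shared by all 21 libraries. In a fit of the 9 libraries of this run, 0 members and 0.579% of all genes were called. Leaving out the hair-rich Nin replicates 1 and 3 left 1 member called, Col11a2, and none of these 3.

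Col7a1 had 139, 178, 157 and 300 CPM in Allo_H and 30.3, 71.2, 72.4, 134 and 133 in Nin (-1.14 ± 0.31, edgeR adjusted p = 0.0284). The lowest value is that of replicate 1, the library richest in hair markers, and replicates 4 and 5 lie just under the lowest Allo_H library. Col4a4 had 1.65, 0.690, 1.07 and 1.08 CPM in Allo_H and 8.41, 5.89, 3.83, 1.23 and 3.34 in Nin, overlapping in replicate 4 (2.01 ± 0.47, edgeR adjusted p = 0.0133). Col4a5 had 7.75, 15.5, 13.6 and 12.5 CPM in Allo_H and 22.8, 16.8, 16.2, 18.6 and 16.2 in Nin (0.55 ± 0.17, edgeR adjusted p = 0.0496), a call kept in 3 of 22 alternatives. Without Nin replicates 1 and 3, the changes of Col7a1, Col4a4 and Col4a5 were -0.83, 1.60 and 0.43 (edgeR adjusted p = 0.0711, 0.059 and 0.193). The part of hair growth in them was not tested beyond that.

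Fibrillar collagen varied widely within Nin. Col1a1 had 553, 511, 1037 and 1047 CPM in Allo_H and 1074, 647, 2487, 1558 and 3602 in Nin (1.25 ± 0.55, edgeR adjusted p = 0.156). Col3a1 had 725, 575, 1634 and 1019 CPM in Allo_H and 970, 1096, 1721, 1892 and 2729 in Nin (0.77 ± 0.47, edgeR adjusted p = 0.328), and Col1a2 was not called either (1.19 ± 0.47, edgeR adjusted p = 0.115). In Col1a1 and Col3a1 Nin replicate 5 is the highest library and the groups overlap. Col15a1 had 27.7, 34.2, 68.4 and 56.1 CPM in Allo_H and 83.6, 132, 130, 44.3 and 106 in Nin (1.09 ± 0.36, edgeR adjusted p = 0.0621). Col12a1 and Col14a1 were not called, at 0.05 ± 0.37 and 0.51 ± 0.41: Col12a1 had 87.8 to 196 CPM in Allo_H and 71.3 to 298 in Nin, and Col14a1 had 31.2 to 117 and 57.0 to 104. Col17a1, which shares its basal keratinocyte origin with Col7a1, had 594 to 1258 CPM in Allo_H and 312 to 995 in Nin (-0.56 ± 0.28, edgeR adjusted p = 0.229). Basal keratinocyte markers held 0.989 to 1.66% of counts in Allo_H and 0.516 to 1.30% in Nin, with Krt14 and Itga6 called lower and Krt15 higher, and their part in the Col7a1 result was not tested.

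Ratios of 2 chains within a library do not depend on its scaling. The Col12a1 to Col14a1 count ratio, chosen after the values of both were seen and given without a test, was 0.200 to 0.306 in Syn, 2.48 to 5.97 in Allo and 0.273 to 0.893 in mCAN10. In the second run it was 1.07 to 6.28 in Allo_H and 0.721 to 3.22 in Nin. Thus Allo lay wholly above both Syn and mCAN10, including Allo replicate 1, while Allo_H and Nin overlapped. The Col3a1 to Col1a1 ratio, a common index of fibril composition, was 1.54 ± 0.276 (SD, n = 4) in Syn, 1.38 ± 0.356 (n = 4) in Allo and 1.33 ± 0.306 (n = 4) in mCAN10. It was 1.25 ± 0.259 (n = 4) in Allo_H and 1.05 ± 0.412 (n = 5) in Nin. None of the 4 comparisons of its log2 value passed a two-sided exact permutation test: the raw p was 0.457, 0.857, 0.343 and 0.341 for Allo against Syn, mCAN10 against Allo, mCAN10 against Syn and Nin against Allo_H, the permutation p adjusted over these 4 was 0.61 or more, and the smallest p possible was 0.0286 with 4 against 4 and 0.0159 with 4 against 5. The type I chains stayed close to each other, with 1.15 ± 0.121 Col1a2 counts per Col1a1 count in Syn and 1.13 ± 0.111 in Allo.

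**Figure D5:**
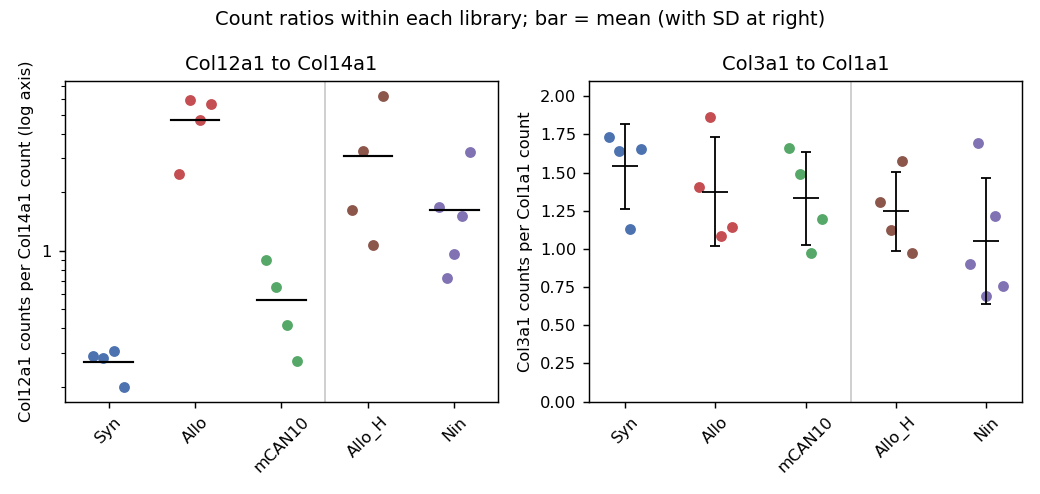
Left, Col12a1 counts per Col14a1 count in each library (log axis, bars are means); right, Col3a1 counts per Col1a1 count (bars are means with SD). The left ratio lies between 2.48 and 5.97 in Allo and between 0.200 and 0.306 in Syn; the right ratio overlaps between all groups.

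Genes that make, process, bind and degrade collagen were read from lists of the pathway, against 22.6, 10.8 and 9.31% of all genes called in Allo against Syn, mCAN10 against Allo and Nin against Allo_H. Of 22 genes for chain modification and folding, 1, the prolyl hydroxylase subunit P4ha3, was higher and 3 lower in Allo than in Syn, 18.2% of the list beside 22.6% of all genes. Those 3 were higher in mCAN10 than in Allo, with none lower: Serpinh1 (the collagen chaperone) fell by 1.00 ± 0.28 and then stood 1.17 ± 0.28 higher, P3h3 (a prolyl hydroxylase) changed by -0.91 ± 0.27 and 1.08 ± 0.27, and Fkbp14 (a prolyl isomerase) by -0.71 ± 0.19 and 0.71 ± 0.19 (edgeR adjusted p from 0.0114 to 0.0219). Both sets of values share the Allo libraries. Of 13 genes for propeptide cleavage and cross-linking, 4 were lower in Allo than in Syn and none higher, among them the cross-linking enzyme Loxl1 and the procollagen peptidase Adamts14, and 2 (15.4% of the list beside 10.8% of all genes) were higher in mCAN10 than in Allo and none lower. Pcolce and Pcolce2, enhancers of C-propeptide removal, fell by 1.33 ± 0.25 and by 2.21 ± 0.65 in Allo and rose by 1.32 ± 0.25 and 2.33 ± 0.65 in mCAN10.

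Of 13 proteoglycans and partners that bind fibrils, 6 were lower in Allo than in Syn and none higher, and 6 were higher in mCAN10 than in Allo and none lower. Osteoglycin (Ogn) changed by -2.74 ± 0.46 and 2.27 ± 0.45, dermatopontin (Dpt) by -2.38 ± 0.45 and 1.93 ± 0.44, and decorin (Dcn) by -1.79 ± 0.42 and 1.88 ± 0.42 in Allo against Syn and mCAN10 against Allo. Dcn, Dpt and Lum stand in the fibroblast marker list as well. Of 9 collagen receptors tested, 1 was higher and 1 lower in Allo than in Syn, 22.2% of the list beside 22.6% of all genes, so neither this count nor that of the folding genes exceeds the background: Lair1, an inhibitory receptor of leukocytes, rose by 3.92 ± 0.83, and Itga11, the fibroblast integrin chain for collagen, fell by 1.22 ± 0.43. None was called in mCAN10 against Allo. Of 11 genes tested from the collagen breakdown list, 4 were higher and 3 lower in Allo than in Syn, and 3 were higher and 2 lower in mCAN10 than in Allo. This list holds proteases and also the inhibitors Timp1, Timp2 and Timp3, so its counts do not give a direction of breakdown. The other genes called were Mmp8, Mmp9 and Timp1, higher in Allo than in Syn, Timp2, lower there and higher in mCAN10 than in Allo, and Mmp9, also lower in mCAN10; these, P4ha3, Loxl1 and Adamts14 were named after their values were seen. Mmp13, an interstitial collagenase, rose by 6.91 ± 1.50 in Allo and fell by 5.51 ± 1.36 in mCAN10, while the fibroblast protease Fap changed by -2.09 ± 0.30 and 1.47 ± 0.30 and the inhibitor Timp3 by -0.77 ± 0.18 and 1.07 ± 0.18. In Nin against Allo_H, 1 folding gene (Fkbp14) and 2 genes of the breakdown list (the protease Fap and the inhibitor Timp3) were called higher. Tll2, the discoidin receptor Ddr2 and the gelatinase Mmp9 were called lower there. In mCAN10 against Syn, edgeR called 0 genes of these 5 lists, with 0, 0, 1, 1 and 3 at an unadjusted p under 0.05 for folding, cleavage, binding, receptors and breakdown.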

How the data were processed

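Poly-A RNA of mouse skin was sequenced from an unstranded kit, per the labels' protocols. The authors deposited whole-number counts per gene symbol for 21 libraries; per the submitters' processing notes, FastQC, Trimmomatic, STAR and featureCounts were used with GRCm39, with no versions, and the annotation used was not given in the sources used here. Of the symbols, 21830 had counts in both counting runs, as did all 40 members. Library columns were mapped to samples by their names, and no 2 columns were identical.

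Counts were tested with edgeR 4.0.16 (R 4.3.3): filterByExpr with a minimum count of 10, TMM scaling, a mean per group over all 21 libraries and Benjamini-Hochberg adjustment over 20462 genes. The SE is the absolute log2 fold change over the square root of F. The script was tested on simulated data. DESeq2 1.42.0, other scalings, other sample sets, marker shares as covariates, replicate blocks and leaving out each library were alternatives. Lengths and overlaps came from GENCODE M21 (GRCm38) and figures from matplotlib 3.10.9.

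The members, gene lists and tests were chosen with earlier results of these data known. Values are given for Col1a1, Col1a2, Col3a1, Col14a1, the member with the highest mean count of each class and every member called in a comparison. Col6a5 was added after its values were seen. Other genes come from pathway lists, with up to 3 of lowest p each.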

Additional observations from a re-analysis of the deposited data

Results flagged for a closer look

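Dixon's ratio was computed for the 22 named collagens in each of the 5 groups, 110 sets of 4 or 5 libraries, and 4 sets had a library far from the others; chance gives about 1 in 20. In Allo, replicate 1 stood apart for Col14a1, at 53.9 CPM against 16.0 in the next library, and for Col8a2, at 10.0 against 1.31. This is the library with 0.00184% of counts in skeletal muscle markers. In Nin, replicate 5 stood apart for Col8a2, at 26.3 CPM against 11.8. In Allo_H, replicate 3 stood apart for Col9a2, at 0.730 CPM against 0.106, both values of few counts. The causes were not tested.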

How the results depend on the processing

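Of 1019 values of single collagens under alternatives, for 54 pairs of gene and comparison, none reversed a called direction; 925 stayed on their side of the threshold, 30 of these with another sign but called in neither fit, 82 lost their call and 12 gained one. Counts of called members moved more, and the cause was not tested. For Allo against Syn (12), leaving out 1 library gave 7 to 16. For mCAN10 against Allo (5), the fit of that run alone gave 9, the muscle covariate 9, the hair covariate 8 and leaving out 1 library 3 to 10 (10 without Allo replicate 1). For mCAN10 against Syn (0), a fit of only these groups gave 1, Col20a1 lower. For Nin against Allo_H (3), fits of that run alone and of only these groups gave 0, the libraries with a label note on 2 lanes 1 and those without it 0, leaving out Nin replicates 1 and 3 together 1 (added after seeing the data), DESeq2 6 and leaving out 1 library 1 to 4 (1 without Nin replicate 3). Counts over all genes also moved by more than 1.5 times: 1906 for Nin against Allo_H became 94 in the fit of its own run, 242 and 333 by lane note, 1225 without Nin replicates 1 and 3, 1190 without a filter and 3039 with DESeq2, and 782 to 2794 when leaving out 1 library; 166 for mCAN10 against Syn became 2131 with only these groups, 505 in its own run, 687 with DESeq2, 377 with the hair covariate, 110 with the muscle covariate, 106 with shared symbols and 31 to 152 when leaving out 1 library; 2204 for mCAN10 against Allo became 3664 in its own run and 1284 to 2168 when leaving out 1 library. Deviations of same-numbered libraries correlated at -0.228 to 0.196 in Allo against Syn and -0.354 to 0.347 in mCAN10 against Allo. The range was -0.174 to 0.263 in mCAN10 against Syn and -0.191 to 0.04 in Nin against Allo_H. With few pairs and no differently numbered pairs beside them, these values cannot settle whether replicate numbers pair the samples. A replicate block by title number gave 12, 5, 0 and 2 called members in the 4 comparisons, and by description number 12, 4, 0 and 2; over all genes the block left 98 and 60 for mCAN10 against Syn. Members near a few counts per library, such as Col9a2, limit what this depth can show.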
